A study of Mus musculus with 14 samples.

Results

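The mitochondrial ribosomal protein genes are the protein-coding genes whose symbol is Mrpl or Mrps followed by a digit. The rule used the gene symbol alone, and it found 78 of the 21883 protein-coding genes of the mouse annotation, after 6 pseudogenes of the same name pattern were left out. Of the 78, 51 encode proteins of the large subunit and 26 encode proteins of the small subunit. Mrps30 and Mrps18a count with the large subunit, where their proteins sit in spite of their names. The last, Mrps36, encodes a subunit of the 2-oxoglutarate dehydrogenase complex and is no longer counted as a ribosomal protein. The genes are spread over 17 chromosomes, with 11 of them on chromosome 11.

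Chromatin came from livers of YAP transgenic C57BL/6 mice, called YAP here, and of wild-type C57BL/6 mice, called WT. YAP is the transcriptional co-activator held in check by the Hippo pathway, and the transgene was induced in liver by doxycycline, given at 50 mg/L in drinking water for 10 days. The labels attach that treatment to every library and do not say whether WT mice drank doxycycline, which promoter drove the transgene, or the age and sex of the mice. Antibodies against H3K4me2, H3K4me1 and the histone demethylase LSD1 were each used on 2 replicates per genotype, and 1 input library per genotype brought the total to 14 libraries. The data are 6 lists of enriched regions, 1 per antibody and genotype, with mm10 coordinates. Each list stands for both replicates, so that no value below has a replicate error, no difference between genotypes has a test, and the read depth is unknown. The H3K4me2 lists held 51676 regions over 49.0 Mb in YAP and 54219 regions over 52.2 Mb in WT. After overlapping entries were merged, the LSD1 lists held 2949 regions in YAP and 1500 in WT. Liver is a mixture of cell types, and in bulk chromatin fewer cells that carry a mark cannot be told apart from less of the mark per cell.

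Mitochondria keep a small genome of their own and translate its messages, which encode core subunits of the respiratory chain, on a dedicated ribosome. The RNA of that ribosome is made in the organelle, but all of its proteins are encoded in the nucleus, made in the cytosol and imported. In a hepatocyte, a cell rich in mitochondria, these genes are housekeeping genes with active promoters. H3K4me2 marks the nucleosomes around active promoters and enhancers, H3K4me1 is most typical of enhancers, and LSD1 removes methyl groups from both.

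Promoter sequences from RefSeq (GRCm38.p6, which shares mm10 coordinates) were found for 69 of the 78 genes, each running from 250 bases before the annotated start to 50 bases after it. The 7 printed here carry the LSD1 and H3K4me2 results that follow. Mrpl30 (chr1:37890227-37890526, plus strand), Mrpl35 (chr6:71823735-71824034, minus strand), Mrps16 (chr14:20393585-20393884, minus strand) and Mrps18c (chr5:100798509-100798808, plus strand) had overlapping LSD1 regions in both genotypes. Mrps33 (chr6:39810887-39811186, minus strand) held the highest-scoring LSD1 region among the genes with LSD1 in YAP only, and Mrps12 (chr7:28741772-28742071, minus strand) the highest-scoring one among the genes with LSD1 in WT only. Mrpl46 (chr7:78783040-78783339, minus strand) shares its start region with Mrps11, transcribed the other way. Capitals mark matches, on either strand, to the motifs described below.
Mrpl30: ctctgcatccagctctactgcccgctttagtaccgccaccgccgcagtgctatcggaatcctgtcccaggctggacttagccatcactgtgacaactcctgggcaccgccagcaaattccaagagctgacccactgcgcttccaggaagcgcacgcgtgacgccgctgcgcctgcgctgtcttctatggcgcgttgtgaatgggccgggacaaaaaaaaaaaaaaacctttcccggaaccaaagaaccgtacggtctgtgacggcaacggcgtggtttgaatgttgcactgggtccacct
Mrpl35: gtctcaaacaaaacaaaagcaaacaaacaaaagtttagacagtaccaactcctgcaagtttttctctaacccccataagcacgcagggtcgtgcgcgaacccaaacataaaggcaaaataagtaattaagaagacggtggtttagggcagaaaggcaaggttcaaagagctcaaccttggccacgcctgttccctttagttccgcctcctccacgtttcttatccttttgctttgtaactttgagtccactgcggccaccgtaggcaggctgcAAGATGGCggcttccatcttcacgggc
Mrps16: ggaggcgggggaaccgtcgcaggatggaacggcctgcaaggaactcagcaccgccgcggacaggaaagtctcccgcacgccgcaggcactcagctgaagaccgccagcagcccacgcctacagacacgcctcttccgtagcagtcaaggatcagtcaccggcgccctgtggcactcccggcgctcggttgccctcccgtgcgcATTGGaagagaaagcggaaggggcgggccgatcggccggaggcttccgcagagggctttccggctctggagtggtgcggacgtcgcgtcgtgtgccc
Mrps18c: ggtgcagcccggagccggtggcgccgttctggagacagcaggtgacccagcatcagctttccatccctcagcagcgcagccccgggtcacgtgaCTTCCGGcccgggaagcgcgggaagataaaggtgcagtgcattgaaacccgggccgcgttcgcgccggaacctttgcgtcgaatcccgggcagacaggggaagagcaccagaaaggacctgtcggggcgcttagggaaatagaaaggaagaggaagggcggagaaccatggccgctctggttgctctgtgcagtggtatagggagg
Mrps33: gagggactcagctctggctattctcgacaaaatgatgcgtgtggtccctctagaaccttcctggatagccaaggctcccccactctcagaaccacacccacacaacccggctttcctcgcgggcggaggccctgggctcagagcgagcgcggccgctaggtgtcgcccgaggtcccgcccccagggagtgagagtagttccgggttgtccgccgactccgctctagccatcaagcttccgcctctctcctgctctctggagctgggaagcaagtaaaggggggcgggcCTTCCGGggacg
Mrps12: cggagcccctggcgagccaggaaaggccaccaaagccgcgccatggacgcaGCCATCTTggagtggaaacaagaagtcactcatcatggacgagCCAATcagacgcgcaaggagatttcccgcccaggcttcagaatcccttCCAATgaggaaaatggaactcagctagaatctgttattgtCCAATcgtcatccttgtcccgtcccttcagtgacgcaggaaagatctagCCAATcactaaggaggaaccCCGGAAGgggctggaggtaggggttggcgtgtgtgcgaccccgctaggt
Mrpl46: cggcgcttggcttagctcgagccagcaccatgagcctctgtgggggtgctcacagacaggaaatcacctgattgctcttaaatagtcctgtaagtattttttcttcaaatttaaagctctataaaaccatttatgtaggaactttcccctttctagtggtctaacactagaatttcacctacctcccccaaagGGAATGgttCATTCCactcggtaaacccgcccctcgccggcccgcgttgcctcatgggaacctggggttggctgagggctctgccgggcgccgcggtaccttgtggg

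Motifs were searched on both strands of these 300 bases, by exact letters, and a match describes the sequence only. The ETS motif CCGGAAG, the core bound by GABP and its relatives, was in 24 of 69 promoters (34.8%), against 18.5% of the 9818 promoters of marked genes, those with H3K4me2 within 1 kb of a gene boundary in both genotypes, and 11.9% of all 17491 promoters. The YY1 motif AAGATGGC was in 12 of 69 (17.4%), against 4.65% of marked genes and 3.21% of all. It is in the Mrpl35 promoter, just after the start, and on the opposite strand in Mrps12. The palindrome bound by NRF1 was in 3 promoters (4.35%), those of Mrpl32, Mrpl39 and Mrpl9, against 2.18% of marked genes and 1.33% of all. The cyclic AMP response element TGACGTCA was in 2 (2.9%), against 3.35% and 2.33%. The TEAD core GGAATG, bound by the DNA-binding partners of YAP, was in 8 of 69 (11.6%), against 11.8% of marked genes and 13.5% of all. Mrpl46 holds it on both strands, a few bases apart. The short NF-Y core CCAAT was in 27 of 69 (39.1%), against 39.4% and 39.2%, and Mrps12 holds it 4 times. None of these motifs contains another, although matches to different motifs could overlap at their ends. Median GC content was 58.3% in these promoters, 61% in those of marked genes and 56.3% in all, and the median observed over expected CpG ratio was 0.818, 0.772 and 0.577 in the same order.

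All 78 genes had H3K4me2 within 5 kb in both YAP and WT livers, which was so for 64.1% of all protein-coding genes. None had it in 1 genotype alone, against 2.58% of all genes for YAP only and 1.44% for WT only. Within 1 kb of an annotated gene boundary, 77 had it in both genotypes, against 55.8% of all genes, 1 had it in WT only, against 1.59% of all genes, and 0 had it in YAP only, against 2.3%. That gene was Mrpl22, a large-subunit protein with a bacterial counterpart. Its boundary region in WT, chr11:58169165-58169851, had 687 bp and a score of 51 on the authors' scale, where the median of the WT regions at these genes that overlapped a YAP region was 187. The start of the Mrpl22 transcript used for the promoter lies inside the gene record, and the region just downstream of it was listed in both genotypes, with 1030 bp in YAP and 1299 bp in WT.

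The amount of marked chromatin was measured as the bases covered by H3K4me2 regions in the gene and 5 kb on both sides. The 78 genes had a median of 3.54 kb in YAP and 3.92 kb in WT, with a range of 1.53 to 10.6 kb in YAP and 1.42 to 12.0 kb in WT. The median of marked genes was 3.84 kb in YAP and 4.04 kb in WT. For all genes with any cover it was 3.46 kb in YAP and 3.64 kb in WT. The summed cover was 298.9 kb in YAP and 334.6 kb in WT. Fewer bases were covered in YAP at 56 genes (background 59.1% of all genes with any cover and 61.7% of marked genes), more at 21, and Mrps35 had 3902 bases in both. The log2 ratio of YAP over WT, taken after 500 bases were added to each, had a median of -0.12, against -0.06 over 14912 genes with any covered base and -0.07 over the 12220 marked genes. Because the YAP list covers less of the genome in all, the ratios were also taken after scaling both lists to the same total. The median was then -0.039, against 0.019 for all genes with cover, and 46 of 78 had fewer bases in YAP, against 47% of all genes.

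The ratios were also close together. Their interquartile range was 0.28, against 0.39 for all covered genes and 0.34 for marked genes. A 1.5-fold difference was passed downwards by 2 of the 78 genes, Mrps21 and Mrps30, against 7.25% of all covered genes and 5.3% of marked genes. It was passed upwards by 0, against 7.69% and 3.85%.

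**Figure D1:**
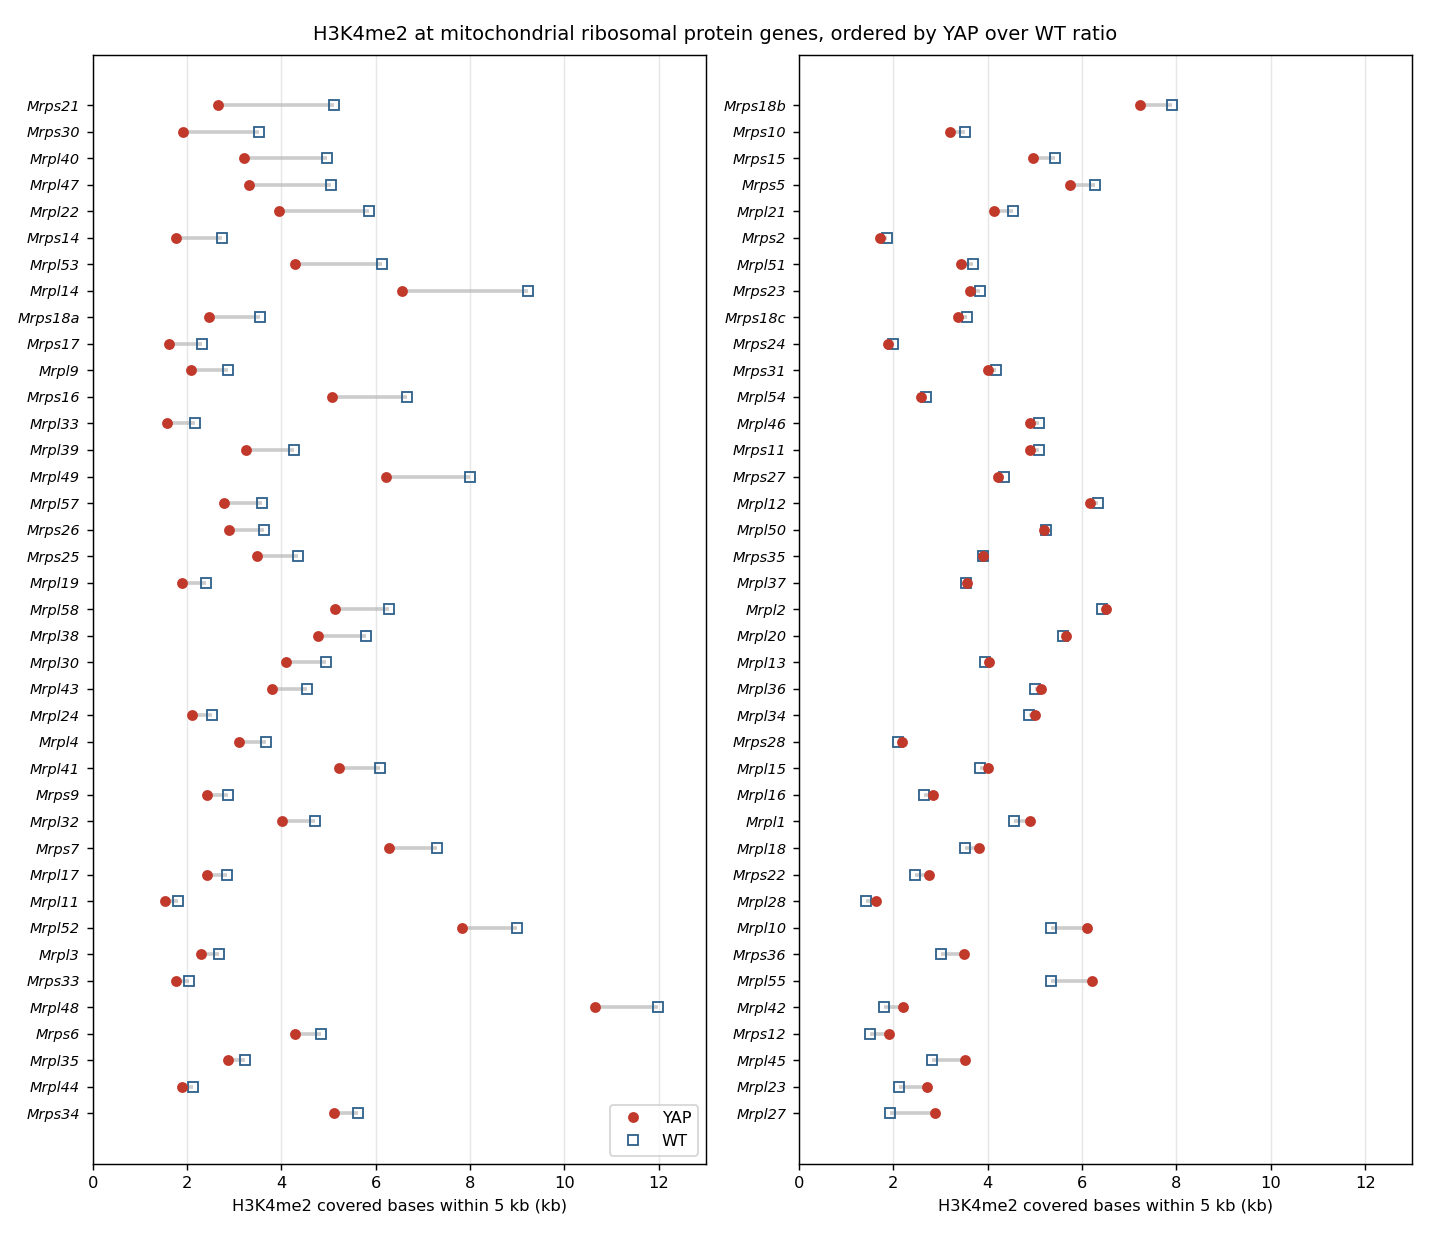
Bases covered by H3K4me2 regions within 5 kb of each of the 78 genes, in kb on the horizontal axis, with a filled red circle for YAP and an open blue square for WT; genes run from the lowest YAP over WT ratio at the top left to the highest at the bottom right. Each symbol is 1 list that stands for both replicates, so there are no error bars, and the red circle lies left of the blue square at 56 genes.

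Mrps21, a small-subunit protein with a bacterial counterpart, had 2.65 kb covered in YAP and 5.12 kb in WT, a log2 ratio of -0.83. Its main region over the start was similar in both genotypes, with 2405 bp in YAP (chr3:95870587-95872991) and 2623 bp in WT (chr3:95870390-95873012). The WT list added 6 short regions of 204 to 697 bp around it, and the YAP list 1, of 248 bp. Mrps30, a mitochondria-specific protein of the large subunit, had 1.92 kb in YAP and 3.53 kb in WT, a log2 ratio of -0.74. There the region downstream of the start itself was shorter, with 1294 bp in YAP and 2395 bp in WT, while the upstream region had 625 bp in YAP and 527 bp in WT.

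The next 6 genes in order of ratio did not pass 1.5-fold on the scale with 500 bases added, on which all log2 ratios here are given. Mrpl40 had 3.21 kb in YAP and 4.97 kb in WT, a log2 ratio of -0.56. Mrpl47 had 3.32 kb in YAP and 5.06 kb in WT (log2 ratio -0.54), and Mrpl22 had 3.94 kb in YAP and 5.86 kb in WT (log2 ratio -0.52). All of these genes encode large-subunit proteins. Mrps14, a core protein of the small subunit, had 1.77 kb in YAP and 2.74 kb in WT, with a log2 ratio of -0.51. Mrpl53, a mitochondria-specific protein, had 4.28 kb in YAP and 6.13 kb in WT, with a log2 ratio of -0.47. Mrpl14, whose bacterial counterpart lies at the subunit interface, had 6.56 kb in YAP and 9.23 kb in WT, with a log2 ratio of -0.46. At Mrpl14 the difference lay beyond the far end of the gene, where WT had regions of 1537 and 1230 bp with no counterpart in YAP.

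Among the genes with more cover in YAP, Mrpl27 came first, with 2.88 kb in YAP and 1.92 kb in WT and a log2 ratio of 0.48. Mrpl27 has a bacterial counterpart whose tail reaches the peptidyl transferase centre. It had 4 regions in YAP and 2 in WT. Mrpl23 had 2.72 kb in YAP and 2.12 kb in WT (log2 ratio 0.30), and Mrpl45, which binds the inner membrane near the exit of the nascent chain, had 3.52 kb in YAP and 2.82 kb in WT (log2 ratio 0.28). Mrps12, the counterpart of a bacterial protein of the decoding centre, had 1.92 kb in YAP and 1.51 kb in WT, a log2 ratio of 0.26. The next 4, Mrpl42, Mrpl55, Mrps36 and Mrpl10, had log2 ratios of 0.23, 0.20, 0.19 and 0.17.

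The most covered bases in WT were at Mrpl48, with 10.6 kb in YAP and 12.0 kb in WT, in a window of 72.5 kb that includes the 62.5 kb gene. Per length, its window was covered to 14.7% in YAP and 16.5% in WT. Mrpl14, Mrpl52, Mrpl49 and Mrps18b followed. Mrpl52, in a short gene, had 7838 bases in YAP and 9001 in WT, which is 61.0% of its window in YAP and 70.1% in WT. Mrpl49 had 6226 bases in YAP and 8001 in WT, and Mrps18b had 7232 in YAP and 7907 in WT. These are short genes as a group, with a median length of 7.69 kb against 22.3 kb for marked genes. The median share of the window that was covered was 17.4% in YAP and 19.5% in WT, against 10.7% in YAP and 11.4% in WT for marked genes. This share depends on gene length. In bases, their median cover was below that of marked genes in both genotypes.

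By role, genes with fewer bases in YAP outnumbered those with more in each of the 4 groups before scaling, but not in all of them after it. Of the 21 large-subunit proteins that have no bacterial counterpart, 18 had fewer covered bases in YAP, with a median log2 ratio of -0.21, and 15 of 21 still did after scaling, with a median of -0.12. Of the 30 large-subunit proteins with a bacterial counterpart, 16 had fewer, and 15 after scaling, when their median of -0.07 turned to 0.0099. In the small subunit, 14 of 16 proteins with a bacterial counterpart had fewer, with a median of -0.12, and 11 did after scaling, with a median of -0.036. Of 10 mitochondria-specific ones, 8 had fewer, with a median of -0.10, and 5 did after scaling, with a median of -0.013. Background shares for these counts are the 59.1% of all covered genes and, after scaling, 47%. The difference between the role groups was not tested.

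**Figure D2:**
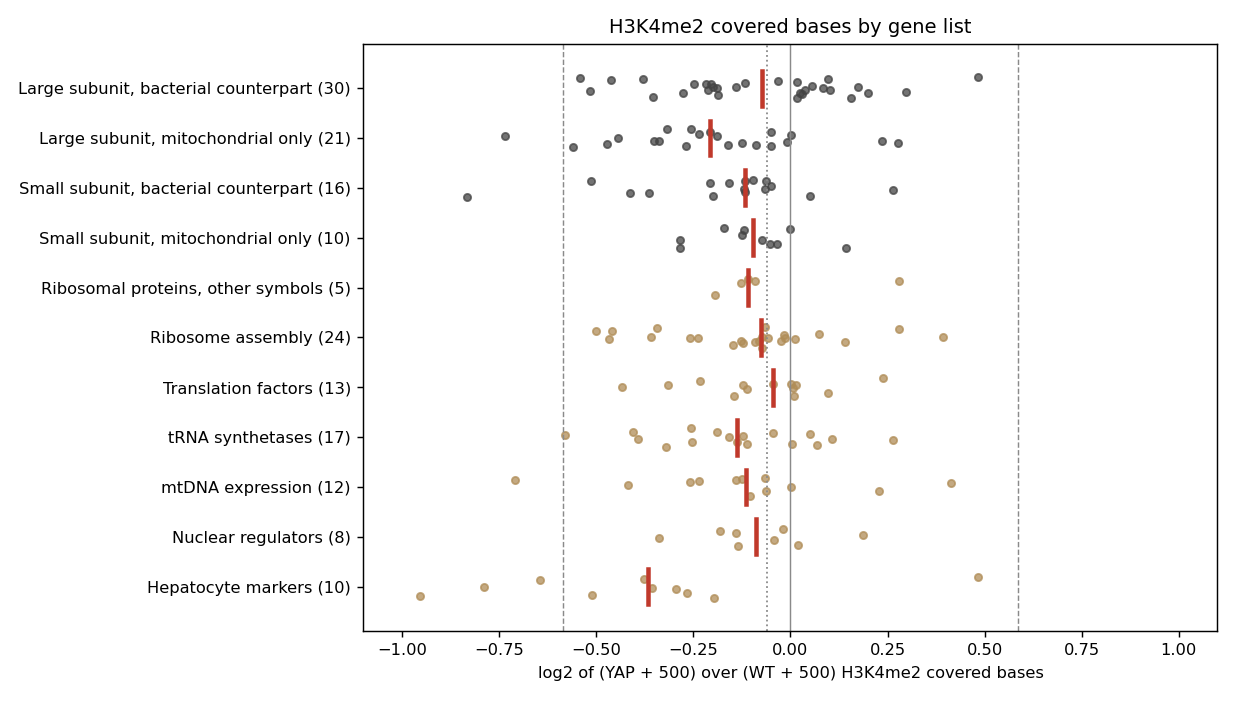
Log2 ratio of YAP over WT covered bases within 5 kb, 500 bases added to each, for every gene (points) and the median (red bar) of each list, with the number of genes in brackets. Black points are mitochondrial ribosomal protein genes by subunit and by whether a bacterial counterpart exists, brown points other lists; the dotted line is the median of all covered genes, -0.06, and the dashed lines are 1.5-fold either way.

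Short regions without a counterpart were more numerous in WT, and by position the flanks had the lowest YAP over WT ratio. The 78 windows held 276 H3K4me2 regions in YAP and 295 in WT. Of these, 21 in YAP (7.61%) and 64 in WT (21.7%) had no overlap with a region of the other genotype, against 21.6% of the whole YAP list and 26.4% of the whole WT list. The unmatched regions were short and low in score, with a median of 314 bp in YAP and 313.5 bp in WT, and median scores of 40 in YAP and 45 in WT, against 179 in YAP and 187 in WT for matched ones. They added up to 6.51 kb in YAP and 25.1 kb in WT. Each region was counted once at its full width, so these sums are not parts of the summed cover. The whole lists were not limited to windows around genes. By position, the YAP over WT ratio of summed bases was 0.946 within 1 kb of the gene boundaries (127.7 kb in YAP and 135.1 kb in WT), 0.912 inside the genes (160.8 kb in YAP and 176.2 kb in WT) and 0.872 in the 5 kb flanks (138.1 kb in YAP and 158.4 kb in WT). For marked genes the ratios were 0.976, 0.924 and 0.953 in the same order.

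Livers of the 2 genotypes also differed in H3K4me2 at markers of cell types. Summed cover at 10 hepatocyte markers was 79.1 kb in YAP and 106 kb in WT, with all 10 covered in both, and 9 of 10 had fewer bases in YAP. At 6 macrophage markers it was 13.3 kb in YAP, with 1 at 0, and 5.15 kb in WT, with 4 at 0, and the 5 covered genes all had more in YAP. It was 15.4 kb in YAP and 11.7 kb in WT at 6 biliary markers, where the defining keratin genes Krt7 and Krt19 were at 0 in both, 2 genes had more and 2 fewer in YAP. Spp1 alone, with 3.75 kb in YAP and 0.62 kb in WT, carried most of the biliary difference. At 6 endothelial markers it was 7.26 kb in YAP and 5.15 kb in WT, with 4 genes higher and 1 lower in YAP. Stab2 alone, with 4.71 kb in YAP and 2.16 kb in WT, differed by more than the endothelial sum did. At 6 lymphocyte markers summed cover was 7.85 kb in YAP and 5.05 kb in WT, with 3 higher and 1 lower, and Ptprc alone, with 2.70 kb in YAP and 0 in WT, carried nearly all of that difference. At 6 stellate cell markers summed cover was 2.36 kb in YAP and 6.97 kb in WT, with 2 higher and 2 lower, and Reln alone, with 1.52 kb in YAP and 6.38 kb in WT, carried the deficit. Of 14912 covered genes, 8818 (59.1%) had fewer bases in YAP and 6087 had more. After scaling, 7011 (47%) had fewer and 7901 had more. Scaling left the marker counts as they were, except that all 4 covered biliary genes then had more in YAP. The part of cell composition in the values of the mitochondrial ribosomal protein genes was not tested.

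Around the annotated start, the share of genes with the mark formed 2 shoulders with a dip between them, although not every gene had both. The start position was known for 69 genes, and cover was read every 100 bp. Downstream of the start, cover reached 98.6% of genes in both genotypes, at 700 bp in YAP and at 300 bp in WT, against at most 84.0% in YAP and 84.1% in WT of 9818 marked genes. Cover was similar at both distances, with 95.7% in YAP at 300 bp and 97.1% in WT at 700 bp. Upstream, it reached 79.7% in YAP and 78.3% in WT, at -200 bp. For marked genes the upstream peak was 71.5% in YAP and 72.1% in WT, at -400 bp. On the start base itself, 29.0% of genes were covered in YAP and 47.8% in WT, against 38.7% in YAP and 41.9% in WT of marked genes. Away from the start, at 2000 bp downstream, 42.0% were covered in YAP and 50.7% in WT. That was below the 53.9% in YAP and 57.1% in WT of marked genes. Marked genes were chosen by H3K4me2 at either boundary. Any that carry it only at the far end lower their shares around the start by construction.

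**Figure D3:**
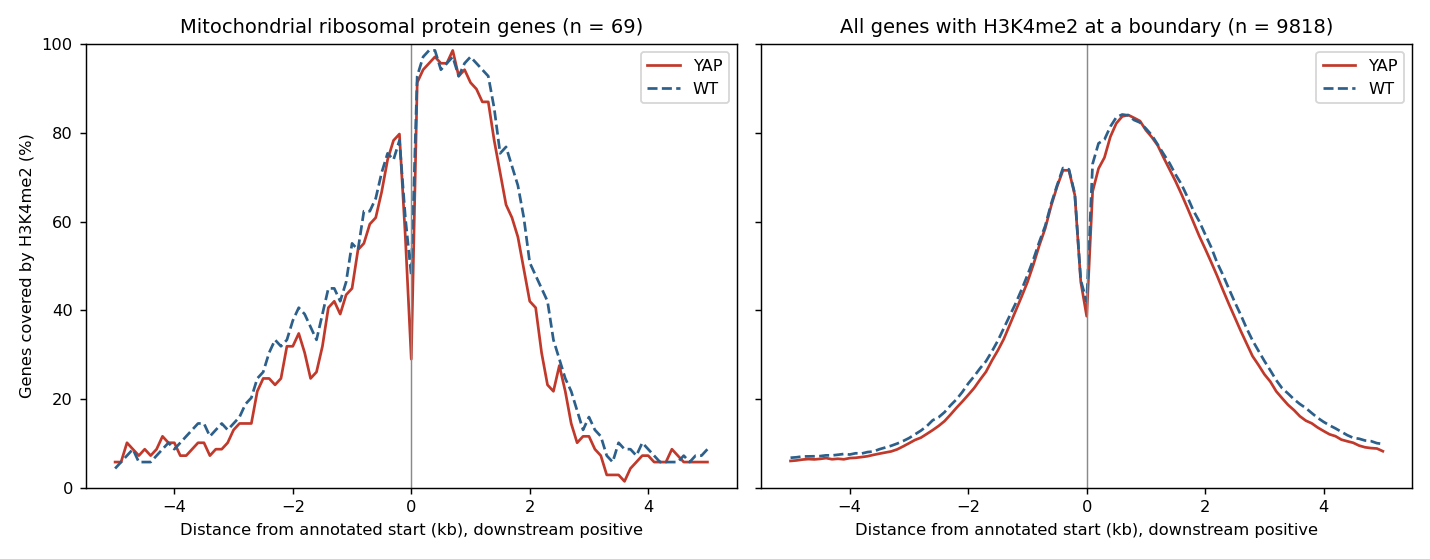
Share of genes covered by H3K4me2 (percent, vertical axis) by distance from the annotated start in kb, downstream positive, read every 100 bp, for the 69 mitochondrial ribosomal protein genes with a known start (left) and 9818 genes with boundary H3K4me2 in both genotypes (right); solid red is YAP and dashed blue is WT. At the start the left panel dips to 29.0% in YAP and 47.8% in WT, and the right panel to 38.7% in YAP and 41.9% in WT.

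Cover of the start base was looked at by gene after this profile had been seen. It was covered in both genotypes at 19 of 69 genes (32.7% of marked genes), in YAP only at 1 (5.96%) and in WT only at 14 (9.24%), and at 35 in neither. Mrpl36 was the 1 covered in YAP only. The 14 covered in WT only were Mrpl9, Mrpl10, Mrpl14, Mrpl35, Mrpl40, Mrpl43, Mrpl52, Mrpl53, Mrps2, Mrps15, Mrps16, Mrps26, Mrps31 and Mrps36. At these 14 genes a WT region ran over the start base, and YAP had a gap between regions there, with a median of 130 bp and a range of 77 to 1784 bp. When any base within 100 bp of the start counted as cover, 66 genes had it in both genotypes, 2 in WT only and 0 in YAP only. At the 35 genes open in both, the gap had a median of 177 bp in YAP and 190 bp in WT. It ranged from 88 to 716905 bp in YAP and from 80 to 11522 bp in WT. The longest gaps reflect genes without a nearby upstream region, such as Mrpl17 in YAP and Mrpl42 in both genotypes.

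Mrps16 is an example of such a start, in the sequence printed above. Its WT region chr14:20392861-20394171 ran across the start without a break. In YAP there were 2 regions, chr14:20392879-20393540 and chr14:20393722-20394215, with a gap of 181 bp that holds the start. At Mrpl40 the YAP gap was 243 bp, and at Mrpl35 it was 77 bp. Of the 14 genes covered in WT only, 4 had LSD1 at a boundary in either genotype (Mrpl35, Mrpl40, Mrps16 and Mrps36), as did 4 of the 19 covered in both and 8 of the 35 covered in neither.

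LSD1 was listed within 1 kb of a gene boundary at 12 of the 78 genes in YAP (15.4%, Wilson 95% interval 9.03 to 24.99%) and at 12 in WT, the same share. The interval covers counting error only and takes the genes as independent, although some share a start region. It is not a test against the shares of other genes. Among marked genes the share was 10.0% in YAP and 5.41% in WT, and among all genes 5.72% in YAP and 3.06% in WT. By gene, 7 had LSD1 in both genotypes (1.34% of all genes and 2.39% of marked genes), 5 in YAP only (4.38% and 7.65%) and 5 in WT only (1.72% and 3.02%). Over all genes there were more YAP-only than WT-only cases, and at these genes the numbers were equal. With both lists held to their 1500 highest-scoring regions, 3 of the 78 genes had LSD1 in both, 3 in YAP only and 9 in WT only, against 1.66%, 3.54% and 3.75% of marked genes. The longer window of 5 kb gave 7 in both, 5 in YAP only and 6 in WT only, against 3.05%, 8.08% and 2.85% of all genes and 4.79%, 12.5% and 4.44% of marked genes.

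The LSD1 regions lay at the starts. Of 12 YAP regions whose gene has a known start, 11 had their centre within 1 kb of it, and of 12 WT regions 11 did. Over all 12 in each genotype, the median distance was 110.5 bp in YAP and 183 bp in WT. The windows held 14 YAP regions, 13 of them on H3K4me2 of the same genotype, and 13 WT regions, 12 of them on H3K4me2. In the whole lists, 64.9% of YAP and 72.3% of WT regions were on H3K4me2. Those lists were not limited to windows around genes, whereas every window here held H3K4me2 in both genotypes. The choice of windows therefore favours a high share by construction. LSD1 regions at other marked genes were not counted in this way, so no difference from them can be read from these shares. In score, which is the authors' own and ranks regions within a list only, the 14 YAP regions had a median of 657.5 against 772 for the YAP list, and the 13 WT regions a median of 785 against 729 for the WT list.

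**Figure D4:**
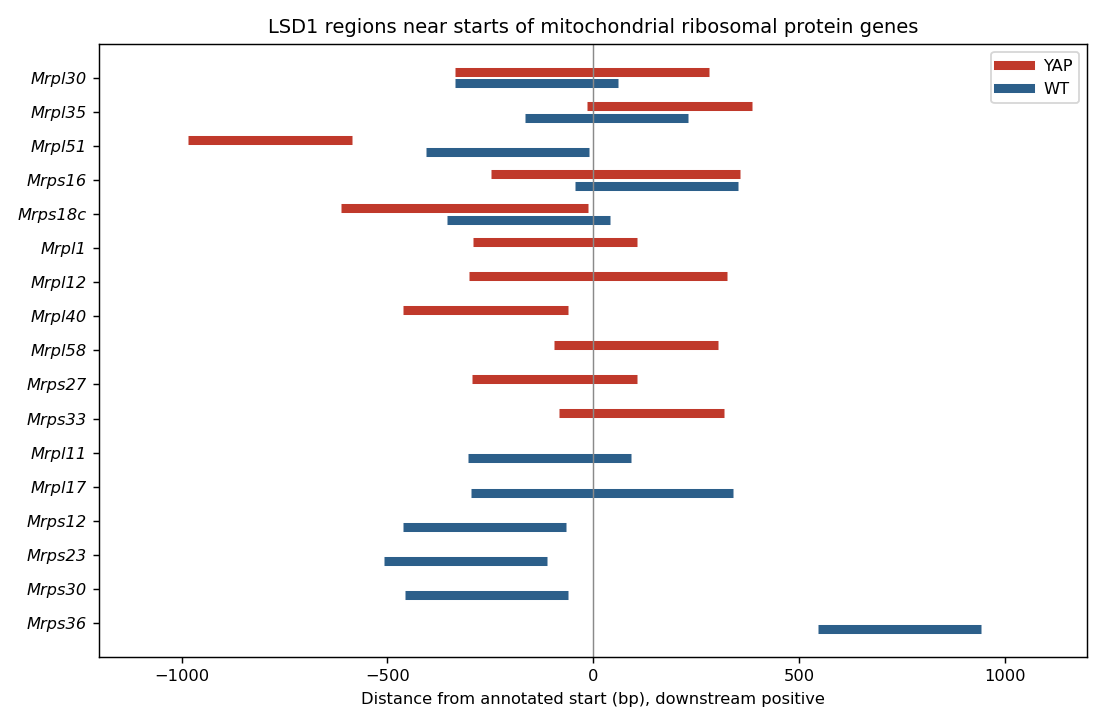
LSD1 regions within 1.2 kb of the annotated start for the 17 genes that have one and a known start; the horizontal axis is the distance in bp, downstream positive, and bars span each region, red for YAP above blue for WT. Mrpl30, Mrpl35, Mrps16 and Mrps18c have overlapping bars in both genotypes, and only the WT bar of Mrps36 and the YAP bar of Mrpl51 lie more than 500 bp away from the start.

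Overlapping LSD1 regions of both genotypes were listed at Mrpl30, Mrpl35, Mrpl54, Mrps16 and Mrps18c. At Mrpl30 the regions, chr1:37890142-37890757 in YAP and chr1:37890142-37890537 in WT, cover the whole promoter printed above. The YAP score was 1000, the top of the scale, and the WT score 663. At Mrps18c the order of scores was the other way, with 542 in YAP (chr5:100798146-100798746) and 1000 in WT (chr5:100798405-100798800). Mrps16 had 652 in YAP and 1000 in WT, and Mrpl35 had 847 in YAP and 779 in WT. Scores of different lists are not on a common scale, so these pairs give no change between genotypes. Mrpl54, a mitochondria-specific protein, had 2 regions in YAP and 1 in WT. The shared one, chr10:81267869-81268268 in YAP, lay 942 bp outside the gene, on the side of the neighbouring gene Apba3. Mrpl51 and Mrpl58 had LSD1 in both genotypes but at different places. Mrpl58 encodes a peptidyl-tRNA hydrolase that became part of the ribosome; its YAP list had 1 region over the start and 1 beyond the other end of the gene, and its WT region lay beyond that end only.

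LSD1 in YAP only was listed at Mrpl1, Mrpl12, Mrpl40, Mrps27 and Mrps33. Mrpl12 belongs to the stalk that recruits translation factors, and Mrps27 and Mrps33 are mitochondria-specific proteins of the small subunit. The highest score was at Mrps33, 976 (chr6:39810619-39811018), followed by 962 at Mrps27, 914 at Mrpl40, 596 at Mrpl1 and 544 at Mrpl12. The scores of Mrpl1 and Mrpl12 stood at ranks 2482 and 2909 of 2949, toward the end of the list. H3K4me2 cover within 5 kb at these 5 genes differed in both directions, with log2 ratios of 0.10 at Mrpl1, -0.03 at Mrpl12, -0.56 at Mrpl40, -0.03 at Mrps27 and -0.17 at Mrps33.

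LSD1 in WT only was listed at Mrpl11, Mrpl17, Mrps12, Mrps30 and Mrps36. Mrps12 had the highest score, 860 (chr7:28741889-28742284), and this region lay in the upstream H3K4me2 gap, with 0 bases on H3K4me2 in either genotype. That gap was 482 bp in YAP and 512 bp in WT, and it includes the 4 CCAAT matches and the YY1 match capitalised above. Mrps36 scored 785, Mrps30 633, Mrpl11 585 and Mrpl17 574. Their log2 ratios of H3K4me2 cover were -0.19 at Mrpl11, -0.20 at Mrpl17, 0.26 at Mrps12, -0.74 at Mrps30 and 0.19 at Mrps36. Mrps23 joins them within 5 kb, with a WT region of score 821 centred at -311.5 bp from its annotated start, upstream of it and inside a gene record that begins further upstream.

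H3K4me1 regions within 5 kb were listed in both genotypes at 4 genes, Mrpl1, Mrpl14, Mrpl48 and Mrpl50. This is 5.13%, near the 6.33% of all genes, against 10.5% of marked genes. They were listed at 0 genes in YAP only (4.98% of all genes and 7.82% of marked genes) and at 0 in WT only (3.16% and 5.08%). The windows here are short, since median gene length is 7.69 kb against 22.3 kb for marked genes. Only at Mrpl48 did the regions of the genotypes overlap, upstream of the start. Within 1 kb of a boundary, 1 gene had H3K4me1 in WT only, Mrpl14 (0.315% of all genes), 0 had it in YAP only (0.471%) and 0 in both (0.101%). None of these regions had a deposited q-value below 0.05.

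Many of these genes lie close to another gene. A neighbour's boundary lay within 1 kb of a boundary at 44 of 78 genes (56.4%), against 36% of marked genes and 24.8% of all. Either boundary can be a start or an end, so this is not a count of shared promoters. Among genes with a known strand, 25 of 69 (36.2%) had a start on the opposite strand within 1 kb, against 15.8% of marked genes and 9.31% of all. Mrpl46 and Mrps11 have starts 42 bp apart, so that a large-subunit and a small-subunit gene share a promoter region and had the same cover within 5 kb, 4.90 kb in YAP and 5.09 kb in WT. Mrps12 and Sars2, the mitochondrial seryl-tRNA synthetase, have starts 147 bp apart and share the LSD1 region listed in WT only. Mrpl30 faces Mitd1 at 66 bp, Mrps27 faces Ptcd2 at 108 bp, Mrpl40 faces the histone chaperone gene Hira at 113 bp and Mrps18c faces the helicase gene Helq at 159 bp. Each of these pairs shares its LSD1 region, so that neither the mark nor LSD1 can be assigned to 1 gene of a pair. LSD1 at a boundary was listed at 6 of the 25 genes with such a start and at 10 of the 44 without.

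Other genes of mitochondrial gene expression were taken from lists named by function. The 5 ribosomal proteins under other symbols all had boundary H3K4me2 in both genotypes, and 4 of 5 had fewer covered bases in YAP (59.1% of all covered genes). Dap3, a small-subunit GTP-binding protein, was the exception, with 5.96 kb in YAP and 4.82 kb in WT and a log2 ratio of 0.28. Chchd1 had -0.19 and Gadd45gip1 -0.13, and LSD1 was at Ptcd3 in YAP only. Of 24 assembly factors, 19 had fewer bases in YAP and 11 did after scaling, when the median log2 ratio of -0.08 turned to 0.0029. The largest ratios were those of the methyltransferase gene Mrm2 (-0.50), the RNA chaperone gene Eral1 (-0.47) and Malsu1 (-0.46), whose product binds the Mrpl14 protein in human mitochondria. LSD1 was at Mrm3, Mterf3 and Trub2 in YAP only and at Mtg2 and Fastkd2 in WT only, with Gtpbp10 added in WT within 5 kb.

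Of 13 translation factors, 7 had fewer bases in YAP and 6 did after scaling. Background shares for the counts of fewer bases are 59.1% of all covered genes and, after scaling, 47%. The ribosome recycling factor gene Mrrf had 3.02 kb in YAP and 4.25 kb in WT (log2 ratio -0.43) and LSD1 in WT only. Gfm2 had a log2 ratio of -0.32 and Mtfmt 0.24. Of 17 mitochondrial tRNA synthetases, 12 had fewer (11 after scaling), led by Yars2 (-0.58), Nars2 (-0.41) and Pars2 (-0.39). LSD1 was at Pars2 and Sars2 in WT only and at Fars2 in YAP only. Of 12 genes that copy, transcribe or stabilise mitochondrial nucleic acids, 9 had fewer (7 after scaling). A 1.5-fold difference downwards was passed by 1, against 7.25% of all covered genes. That gene was Polrmt, the mitochondrial RNA polymerase, with 1.08 kb in YAP and 2.08 kb in WT and a log2 ratio of -0.71. Lrpprc had -0.42, and the DNA polymerase gene Polg had 0.41. LSD1 was at Tfam, the packaging and transcription factor of mitochondrial DNA, in YAP only, and at Mgme1 in WT only, with Polg added in WT within 5 kb. Of 8 nuclear regulators of mitochondrial genes, 6 had fewer (4 after scaling), with Gabpb1 at -0.34, Ppargc1a at 0.19 and Gabpa at -0.18. LSD1 was at Esrra and Pprc1 in YAP only. For the LSD1 calls in these lists, background shares at a boundary are 4.38% of all genes in YAP only and 1.72% in WT only. Among marked genes they are 7.65% and 3.02%.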

How the data were processed

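Chromatin immunoprecipitation sequencing of mouse liver was analysed from 6 deposited region lists. Micrococcal nuclease, per the labels' protocols, fragmented the chromatin; it is an enzyme that cuts between nucleosomes, and the ends of regions can reflect where it cut. Per the submitters' processing notes, reads were handled on build mm10 with deepTools 3.3.0, bedtools 2.26.0, Picard 1.126, SAMtools 1.7, BWA and Trimmomatic 0.39, listed without an order. Which program called the regions, at what limit and with which input, is not given in the sources used here. Each list is named, per the labels, by 2 replicates, and how the authors combined them is not stated. The score deposited by the authors equals 10 times −log10 of the p-value for the histone marks; for LSD1 it runs from 540 to 1000 and its meaning is not stated. The signal values deposited by the authors, of unstated definition, only broke ties of score. The deposited −log10 q-values served only to apply the 0.05 limit to H3K4me1. Depth is unknown.

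Overlapping regions of a list were merged, and an overlap needed at least 1 bp. Gene positions came from a RefSeq table of GRCm38.p6, strand and starts from its promoter table, which lacks 9 of the 78 genes. Exons were not used here. The genes, lists, roles and motifs were chosen with earlier results of these data known, and the start-base measure was added after seeing the profile. With 1 list per group no test was made. Named genes followed a rule: every gene with LSD1 or H3K4me1 within 5 kb or lacking boundary H3K4me2 in a list, the 8 with the largest rise and the 8 with the largest fall in cover, the 5 with the most cover in WT, and in other lists the 3 with the largest ratio and up to 6 with LSD1 in 1 genotype. Alternatives varied the window, added bases, score limit, joining, scaling, overlap and list size. Python 3.11.15, numpy 2.4.6, pandas 2.3.3, scipy 1.17.1 and matplotlib 3.10.9 were used, and covered bases were tested on simulated data against bedtools 2.31.1.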

Additional observations from a re-analysis of the deposited data

How the results depend on the processing

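Of 89 values, 54 counted as the same under the alternatives, 35 moved and 0 reversed. Only the median log2 ratio could reverse, since all other values are counts, which have no sign. The order of YAP-only and WT-only counts did change under some alternatives. No paired analysis was possible because each list stands for both replicates, and for the same reason no replicate could be left out. The count of genes past 1.5-fold lower in YAP, 2 as reported, was 5 without flanks, 4 with 1 kb flanks, 5 with 100 bases added, 1 with 2000 bases added, 5 with the higher-scoring 50% of regions and 6 when only bases nearest to the gene counted. With regions within 1 kb joined, 1 gene was past 1.5-fold higher. The shares of other genes past 1.5-fold lower, 7.25% of all covered and 5.3% of marked genes, hold for the reported setting only. Whether these genes passed 1.5-fold less often than others under the alternatives is therefore not known. Scaled to the same total, the median log2 ratio was -0.039. Boundary H3K4me2 was in YAP only at 1 gene and in WT only at 3 within 500 bp, in WT only at 0 within 2 kb, at 2 with an overlap of at least 200 bp and at 0 at the start alone; with the higher-scoring 50% it was in YAP only at 1 and in WT only at 0. LSD1 within 5 kb, with lists of equal size, was in both at 3 genes, in YAP only at 3 and in WT only at 10, and at boundaries at 3, 3 and 9 in the same order. At boundaries the shares of all genes were then 0.932%, 2.04% and 2.13%. Without flanks LSD1 was in both at 3, in YAP only at 6 and in WT only at 5. With 50 kb flanks these counts were 17, 14 and 8. In both settings YAP-only genes outnumbered WT-only ones, the opposite of the 5 and 6 reported for 5 kb. H3K4me1 without flanks was in both at 1, in YAP only at 1 and in WT only at 1; with 50 kb flanks at 10, 8 and 3; with a q-value below 0.05 in both at 0. Over the start, chosen after seeing the data, requiring all bases within 100 bp gave 2 in YAP only, and any base within 100 bp gave 66 in both, 0 in YAP only and 2 in WT only. The cause was not tested beyond what each alternative changes by construction. Alternative counts printed without a share over all genes describe these genes only. Without lists per replicate, differences of a few genes or a short stretch of bases cannot be set against an error.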
